A study of Homo sapiens with 4 samples.

Results

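The miR-148 and miR-152 family is a set of 3 human microRNAs (miRNAs), hsa-miR-148a-3p, hsa-miR-148b-3p and hsa-miR-152-3p, which were chosen by name out of 843 distinct miRNA entries in the deposited table. All 3 were listed in every library. The libraries were small RNA sequencing of the RNA recovered in a pull-down assay, in which biotinylated RNA probes made in vitro and bound to streptavidin beads were incubated with cell lysate. The 2 cell lines, HGC27 and AGS, are established human gastric cancer lines, and both carried stable lentiviral overexpression of the FN1 3′-UTR, the untranslated end of the fibronectin mRNA. Each line gave 1 library with the positive and 1 with the negative RNA probe, both described as probes to the FN1 3′-UTR. All 4 libraries thus shared the overexpression, and there was no unmodified parental line. The study's methods name antisense RNA as the bait on the beads and the sample labels name the transcript or its antisense, and neither says which strand was the positive and which the negative probe. HGC27 was grown in RPMI-1640 and AGS in DMEM/F12, and cell line and medium cannot be told apart. With 1 library per group no difference between 2 libraries has a replicate check, so intervals below are 95% intervals of counting error only, and reads amplified without molecular identifiers are not independent molecules.

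A miRNA guides the Argonaute complex to mRNAs mainly through its seed, bases 2 to 8 from the 5′ end, and miRNAs with the same seed form a family with largely overlapping targets. Members of this family are known for targeting DNMT1, the maintenance DNA methyltransferase, and have been described as reduced in tumours of the digestive tract. A miRNA hairpin yields a 3p and a 5p arm, and for this family the 3p arm is the one usually loaded into Argonaute.

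The mature sequences are shown with the seed in capitals, because the members can be told apart only by a few bases after it.
miR-148a-3p: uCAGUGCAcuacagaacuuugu
miR-148b-3p: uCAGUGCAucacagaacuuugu
miR-152-3p: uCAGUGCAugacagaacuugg
Each was identical to its RefSeq mature sequence (GRCh38.p14). Only these 3 of the 843 entries carried this seed at bases 2 to 8. Counted from base 1 at the 5′ end, miR-148b-3p differed from miR-148a-3p by C9U and U10C. miR-152-3p differed from miR-148a-3p by C9U, U10G and U20G, and from miR-148b-3p by C10G and U20G. The first pair was identical at 20 of 22 positions (90.9%), and miR-152-3p matched miR-148a-3p at 18 and miR-148b-3p at 19 of 21 positions. Every pair differed at base 10, so a tag that ended early but past that base still held a difference. Tags with sequencing errors at these bases could be assigned to another member. The values of the rarer members beside miR-148a-3p carry that uncertainty.

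The 3 genes lie on different chromosomes. miR-148a-3p mapped to chr7:25949922-25949943 on the minus strand, inside the hairpin gene MIR148A, which in GENCODE 29 lay in no other annotated gene. miR-148b-3p mapped to chr12:54337278-54337299 on the plus strand, and its hairpin gene MIR148B was intronic in all 17 overlapping transcripts of COPZ1, a coatomer zeta subunit of vesicle coats. miR-152-3p mapped to chr17:48037174-48037194 on the minus strand, and MIR152 was intronic in all 3 overlapping transcripts of COPZ2, the second coatomer zeta gene.

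The deposited counts summed to between 1296853 and 2955078 per library, and between 342 and 609 entries were listed. The deposited score of an entry is its number of tags scaled per 1000000, rounded to whole numbers by the authors. The divisor recovered from count and score exceeded the sum of the listed counts, which made up 35.7% to 50.0% of it. An entry was called lower or higher between 2 libraries when the ratio of its scores, each raised by 1, was at most 0.5 or at least 2. These calls describe size and are not tests. Rounded scores of 0 and 1 give a ratio of exactly 0.5 or 2 and are called, and scores of 0 in both libraries give 1. Shares and medians over all listed entries therefore include many set at the floor, and those over entries with at least 100 counts are less affected.

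Among the members, miR-148a-3p was the most abundant in every library. Its counts were 734628 with the negative and 453909 with the positive probe in HGC27, and 144027 with the negative and 24595 with the positive probe in AGS. It ranked first of all entries in both HGC27 libraries, second in the AGS negative probe library and 12th in the AGS positive probe library. miR-148b-3p had 5162 and 1882 counts in HGC27 and 770 and 81 in AGS, with the negative probe first. It ranked between 32nd and 92nd. miR-152-3p had 402 and 44 counts in HGC27 and 33 and 7 in AGS, in the same order, with ranks from 91 to 207. The order miR-148a-3p, miR-148b-3p, miR-152-3p held in all 4 libraries with intervals that did not overlap, and counts of different miRNAs also carry adaptor ligation preferences that were not corrected.

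**Figure D1:**
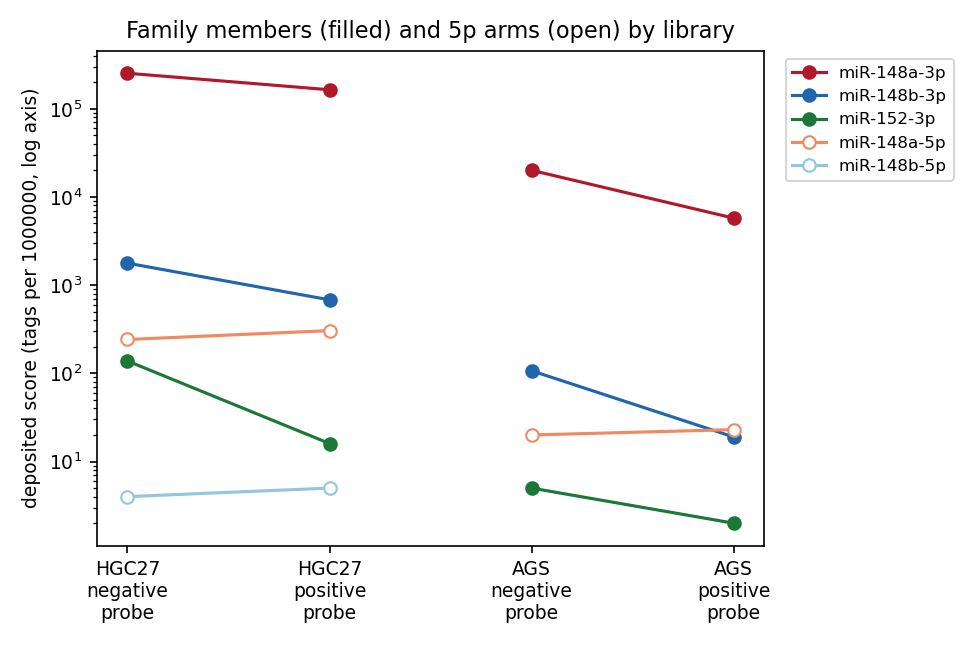
Deposited score (tags per 1000000, log axis) of the 3 members (filled) and the 2 listed 5p arms (open) in each library, 1 point per library, with lines joining the 2 probes of a cell line. miR-148a-3p went from 252735 to 164266 in HGC27 and from 20062 to 5756 in AGS, and on this scale all 3 members were lower with the positive probe while the 5p arms, where listed, were not; other scalings move miR-148a-3p in HGC27 to a ratio of 1.01 and miR-148a-5p in AGS to as low as 0.410.

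As a share of all listed counts, the family made up 50.9% (95% Wilson interval 50.9 to 51.0) in HGC27 with the negative probe and 35.1% (35.1 to 35.2) with the positive probe. In AGS it made up 4.90% (4.88 to 4.93) and 1.62% (1.60 to 1.64). A share falls when other entries rise, and 2 other sets took much of these libraries. The let-7 list, miRNAs associated with differentiation, made up 8.87% and 37.3% of the HGC27 counts and 1.18% and 40.0% of the AGS counts, with the negative probe first. miR-372-3p, from a cluster expressed in embryonic stem cells, made up 80.8% and 37.5% in AGS and 0.178% and 0.300% in HGC27. When both were left out of the total, a choice made after seeing the data, the family share was 56.0% (55.9 to 56.1) and 56.3% (56.2 to 56.4) in HGC27. The corresponding AGS shares were 27.2% (27.1 to 27.3) and 7.18% (7.09 to 7.26). The difference between the probes in HGC27 was then 0.276 percentage points upwards on this scale, and the difference in AGS was still downwards.

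**Figure D2:**
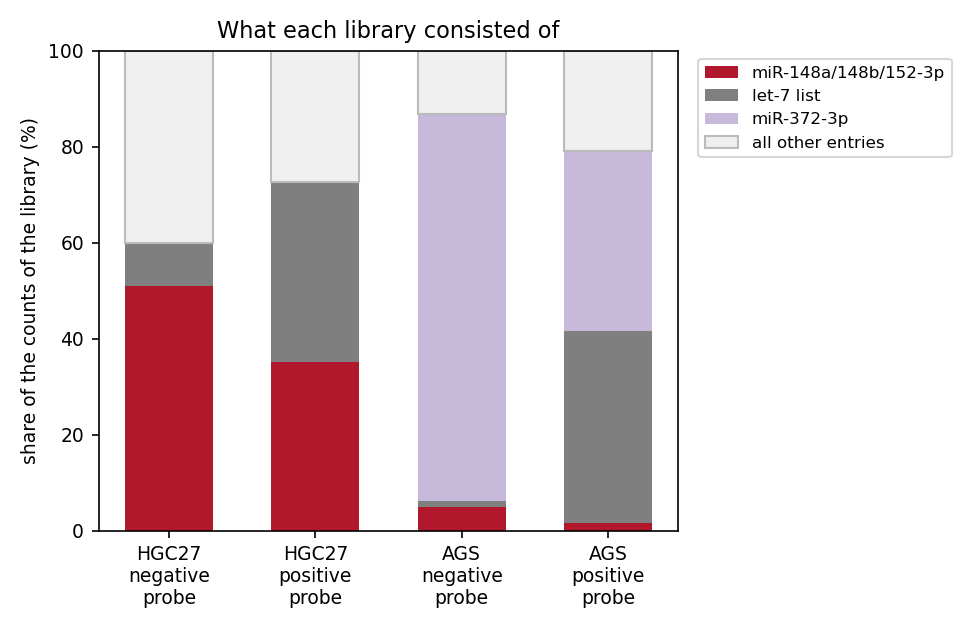
Stacked bars of the share (%) of each library's listed counts taken by the 3 family members, the let-7 list, miR-372-3p and all other entries, 1 bar per library. The family takes 50.9% and 35.1% of the HGC27 libraries and 4.90% and 1.62% of the AGS libraries, while the let-7 part is larger with the positive probe in both lines.

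The comparison of the probes asked which miRNAs were recovered with the positive probe beyond the negative probe. All 3 members had lower scores with the positive probe in both lines, a direction that 1 of the scalings tried reversed for miR-148a-3p in HGC27 (ratio 1.01 without miR-372-3p and let-7 in the totals). In HGC27 the summed family score went from 254649 to 164963, a ratio of 0.648 (0.645 to 0.650), or 1.54-fold lower, which was not past the 2-fold limit. The ratio of miR-148a-3p was 0.650 (0.648 to 0.652), from scores of 252735 and 164266. miR-148b-3p was 2.61-fold lower, with scores of 1776 and 681 and a ratio of 0.384 (0.364 to 0.404). miR-152-3p was the lowest of the members, with scores of 138 and 16, a ratio of 0.122 and, from the counts without rounding or pseudocount, 0.115 (0.0823 to 0.157). The members thus differed from each other in HGC27, with no overlap of their intervals.

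Of the 3 members, 2 were called lower in HGC27. Among all 755 entries listed in either HGC27 library, 34.0% were called lower, and the share was also 34.0% of the 159 entries with at least 100 counts in either library. Counted from the lowest ratio, miR-152-3p stood 15th, miR-148b-3p 46th and miR-148a-3p 71st among those 159. The median log2 ratio was -1.38 over the members, 0.00 over all listed entries and -0.37 over the 159. With libraries scaled to totals without miR-372-3p and let-7, the family ratio in HGC27 was 1.00, that of miR-148b-3p 0.595 and that of miR-152-3p 0.181.

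In AGS the family score went from 20174 to 5777, a ratio of 0.286 (0.283 to 0.290), or 3.49-fold lower. miR-148a-3p had scores of 20062 and 5756 and a ratio of 0.287 (0.283 to 0.291). miR-148b-3p was 5.40-fold lower, with scores of 107 and 19 and a ratio of 0.185, which from the counts was 0.177 (0.139 to 0.222). miR-152-3p had scores of only 5 and 2, which put it exactly on the limit with a ratio of 0.5. From its 33 and 7 counts the ratio was 0.356 (0.133 to 0.819), an interval that reaches past the limit, and with a pseudocount of 10 it was 0.8.

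All 3 members were called lower in AGS, where 22.7% of the 459 listed entries were, and 33.9% of the 109 entries with at least 100 counts in either library. miR-148b-3p stood 24th and miR-148a-3p 32nd from the lowest of those 109, and miR-152-3p was too rare to be ranked. The median log2 ratio was -1.80 over the members, 0.00 over all listed entries and 0.33 over the 109. The family ratio in AGS stayed below 0.5 under each scaling tried, from 0.101 to 0.330.

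**Figure D3:**
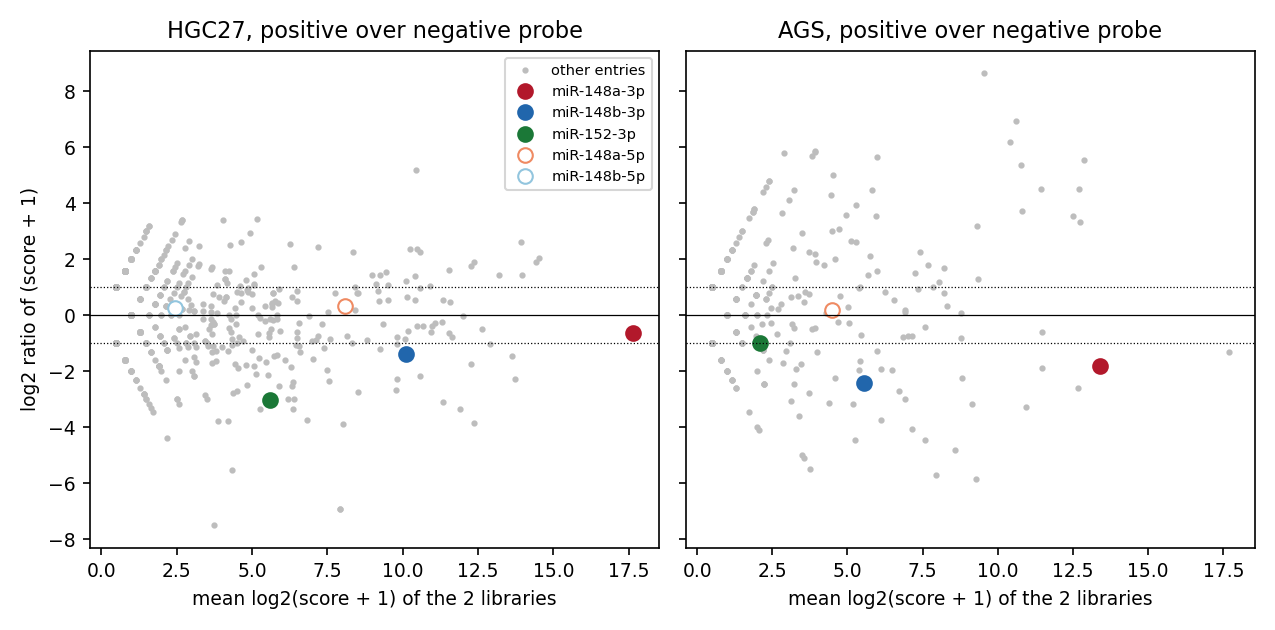
Log2 ratio of the positive over the negative probe (score + 1) against the mean log2(score + 1) of the 2 libraries, for every listed entry (grey) and the family (colours, 5p arms open), in HGC27 (left) and AGS (right), with dotted lines at the 2-fold limits. The 3 members lie below 0 in both panels, at -0.62, -1.38 and -3.03 in HGC27 and -1.80, -2.43 and -1.0 in AGS for miR-148a-3p, miR-148b-3p and miR-152-3p, within a wide spread of other entries.

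The ratio of 2 members within a library does not depend on how libraries are scaled. There were 142 counts of miR-148a-3p (138 to 146) for each miR-148b-3p count in HGC27 with the negative probe and 241 (231 to 252) with the positive probe. In AGS there were 187 (174 to 201) and 304 (244 to 382). miR-148b-3p was therefore the lower of the pair with the positive probe in both lines, and the difference had overlapping intervals, 1.69-fold (1.61 to 1.79) in HGC27 and 1.62-fold (1.29 to 2.04) in AGS, by approximate log-normal intervals.

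miR-152-3p did not follow miR-148b-3p in the same way in both lines. The count ratio of miR-148b-3p to miR-152-3p went from 12.8 (11.6 to 14.2) to 42.8 (31.7 to 59.1) in HGC27, which is 3.33 times as high (2.43 to 4.57). In AGS it went from 23.3 (16.5 to 34.1) to 11.6 (5.37 to 29.7), 0.496 times as high (0.213 to 1.16), which rests on 7 counts of miR-152-3p and has an interval that includes 1. With the positive probe miR-148a-3p over miR-152-3p was 5.65 times (4.14 to 7.71) its negative probe value in HGC27 and 0.805 times (0.356 to 1.82) in AGS. As a share of the family counts, miR-148a-3p held 99.2% to 99.6% in the 4 libraries, miR-148b-3p 0.328% to 0.697% and miR-152-3p 0.00965% to 0.0543%, so sums over the family describe miR-148a-3p.

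The 5p arms are the other products of the same hairpins, and their sequences show a seed unlike that of the 3p arms.
miR-148a-5p: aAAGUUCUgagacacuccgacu
miR-148b-5p: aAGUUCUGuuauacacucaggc
These are the sequences of the deposited table. miR-148b-5p matched RefSeq at chr12:54337240-54337261 on the plus strand. The miR-152 5p arm had no entry in the table analysed.

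The 5p arm of miR-148a had a higher score with the positive probe in both lines, unlike its 3p arm, but in AGS this turned to a ratio of 0.704 with TMM, 0.903 with DESeq2 size factors and 0.410 without miR-372-3p in the totals. miR-148a-5p had 703 counts with the negative and 843 with the positive probe in HGC27, and its score ratio was 1.26 (1.14 to 1.40). In AGS it had 144 and 99 counts, and the ratio was 1.14 (0.885 to 1.5). Neither was past the 2-fold limit. In counts, miR-148a-3p exceeded miR-148a-5p 1045-fold (970 to 1127) and 538-fold (503 to 577) in HGC27, and 1000-fold (849 to 1186) and 248-fold (204 to 306) in AGS, with the negative probe first. The ratio of the arms was 1.94-fold lower with the positive probe in HGC27 and 4.03-fold lower in AGS.

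With the negative probe the arm ratio of miR-148a was alike in the lines, with HGC27 over AGS at 1.04 (0.873 to 1.25). With the positive probe it was 2.17 (1.76 to 2.67). miR-148b-5p was listed in HGC27 alone, with 12 and 13 counts, and the ratio of miR-148b-3p to it went from 430 (246 to 833) to 145 (84.5 to 272). The lower arm ratio was not particular to the family. Of 37 hairpins in HGC27 with at least 10 counts of both arms in both libraries, 19 had a lower 3p over 5p ratio with the positive probe, at a median log2 change of -0.33, and miR-148a with -0.96 stood 15th from the lowest. In AGS 8 of 11 such hairpins had a lower ratio, at a median of -2.93, and miR-148a with -2.01 stood 7th.

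**Figure D4:**
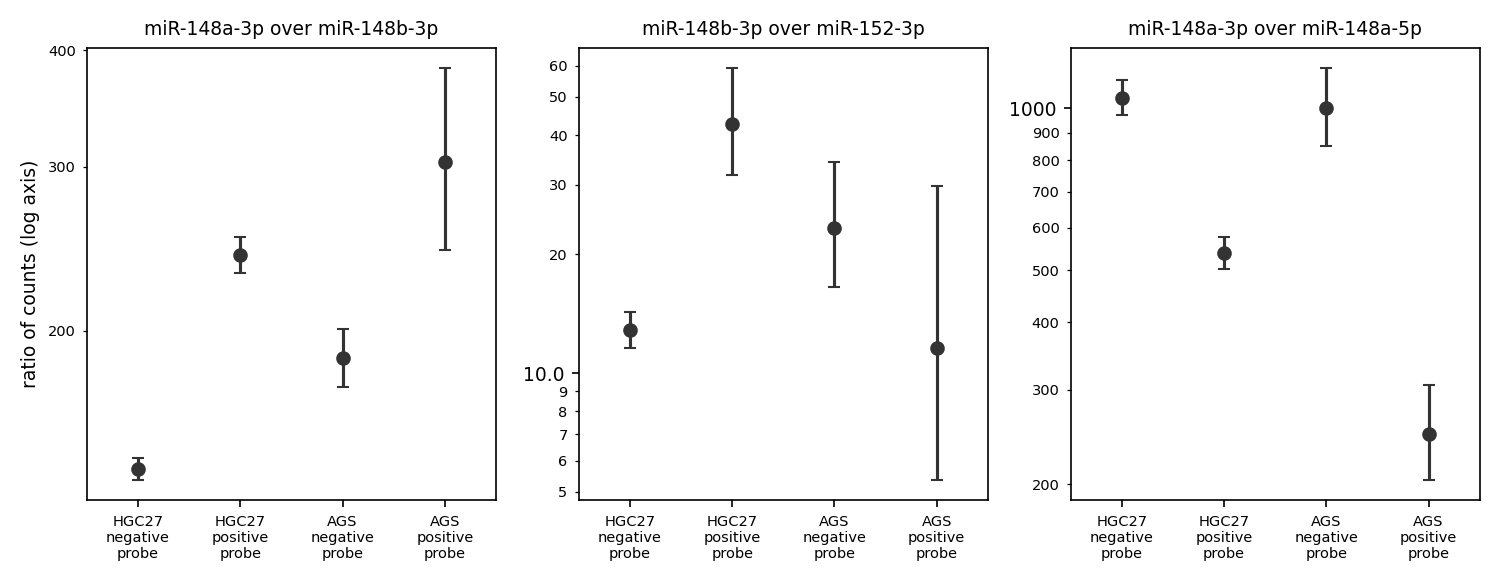
Ratio of counts within each library (log axes that differ between panels) of miR-148a-3p over miR-148b-3p, miR-148b-3p over miR-152-3p, and miR-148a-3p over miR-148a-5p, with 95% exact intervals of counting error. The left ratio is higher with the positive probe in both lines (142 to 241 and 187 to 304), the middle one is higher with the positive probe in HGC27 (12.8 to 42.8) and has a wide interval in AGS, and the right one is lower with the positive probe in both (1045 to 538 and 1000 to 248).

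Between the lines, all 3 members had higher scores in HGC27 with either probe. With the negative probe the family was 12.6-fold higher (12.6 to 12.7), miR-148a-3p 12.6-fold, miR-148b-3p 16.5-fold and miR-152-3p 23.2-fold, the last from scores of 138 and 5 and 30.1-fold (21.1 to 44.3) from the counts. With the positive probe the family was 28.6-fold higher (28.2 to 28.9), miR-148a-3p 28.5-fold, miR-148b-3p 34.1-fold and miR-152-3p 5.67-fold, or 9.72-fold (4.34 to 25.6) from 44 and 7 counts. miR-148a-5p was 11.6-fold and 12.8-fold higher.

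All 3 members were called higher in HGC27 at both probes, but so were most entries. The share called higher was 86.0% of the 615 listed entries and 83.6% of the 159 with at least 100 counts for the negative probe, and 75.3% of 684 and 70.3% of those with at least 100 counts for the positive probe. With the negative probe the median log2 ratio over the entries with at least 100 counts was 3.56, beside 4.04 over the members. With the positive probe these medians were 2.89 and 4.83. miR-372-3p alone took 80.8% of the AGS negative probe counts, and without it in the totals the family was 2.00-fold higher in HGC27 with the negative and 13.6-fold higher with the positive probe. With trimmed mean of M-values (TMM) scaling these were 1.54-fold and 6.0-fold. Under TMM the ratios of miR-148a-3p, miR-148b-3p and miR-152-3p were 1.54, 2.02 and 3.59 with the negative probe. With the positive probe they were 5.99, 7.47 and 1.92.

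**Figure D5:**
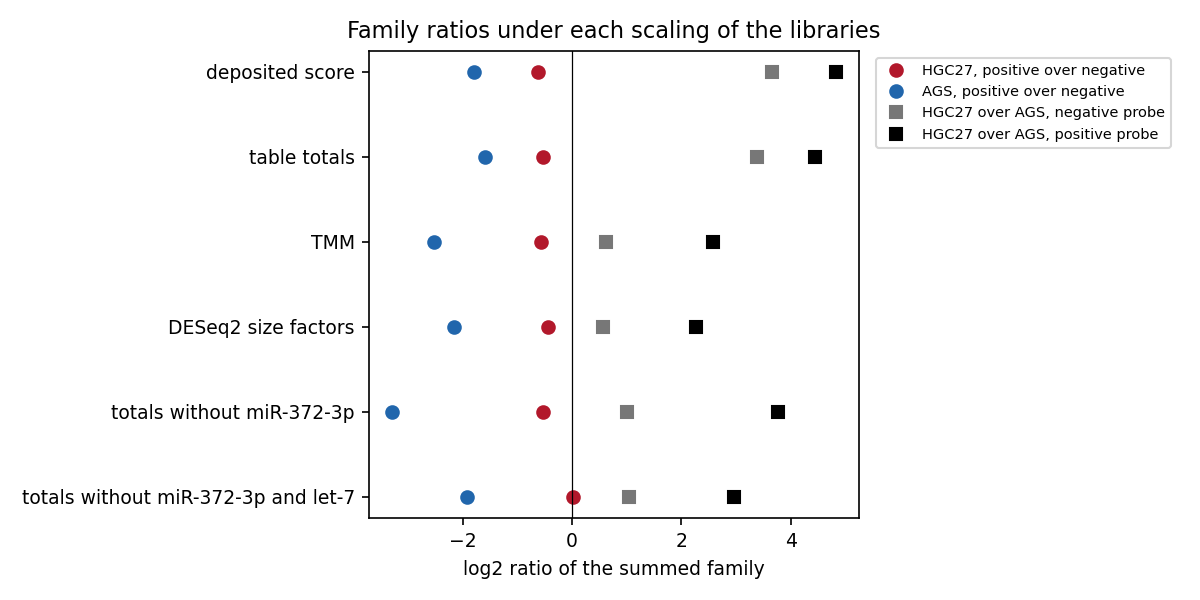
Log2 ratio of the summed family (x axis) under the deposited score and 5 other scalings of the libraries (y axis), for the probes in each line (circles) and the lines at each probe (squares). The HGC27 probe ratio goes from 0.648 to 1.00, at log2 near 0, when miR-372-3p and let-7 are left out of the totals, the AGS probe ratio stays below 0.5, and HGC27 over AGS with the negative probe goes from 12.6 to 1.47.

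A test across lines was possible only by treating the 2 lines as the replicates of a probe, with the line as covariate. In edgeR's quasi-likelihood test over 271 entries, the log2 fold change of the positive over the negative probe was -1.62 ± 2.36 (SE) for miR-148a-3p, with an adjusted p of 0.735. For miR-148b-3p it was -2.34 ± 1.25, with an edgeR adjusted p of 0.279. For miR-152-3p it was -2.73 ± 1.15, with an edgeR adjusted p of 0.113. Each SE, here and in the test of the lines, was back-calculated as the size of the log2 fold change over the square root of the F statistic. No member passed 0.05, while 2.95% of the 271 entries were lower past it. The members lay 65th, 35th and 28th from the lowest fold change. For miR-148a-5p the log2 fold change was -0.13, with an edgeR adjusted p of 0.955.

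The test of the lines, with the probe as covariate, gave log2 fold changes of HGC27 over AGS of 1.37 ± 2.35 (SE) for miR-148a-3p, 1.72 ± 1.24 for miR-148b-3p and 1.23 ± 1.11 for miR-152-3p. The edgeR adjusted p-values were 0.709, 0.331 and 0.459, and none passed, while 22.1% of the entries were higher in HGC27 past the threshold. Scaling by library totals in place of TMM moved the median log2 fold change of all entries from 0.63 to 3.17. Under it 154 of the 271 entries were higher in HGC27 past the threshold. Among them were miR-148b-3p, at a log2 fold change of 4.27 (edgeR adjusted p 0.00548), and miR-152-3p, at 3.81 (edgeR adjusted p 0.0204). miR-148a-3p, at 3.91 (edgeR adjusted p 0.442), did not pass. miR-148a-5p also passed with library totals, at 3.32 (edgeR adjusted p 0.00718). miR-148b-5p passed with TMM (edgeR adjusted p 0.0168), but it was not listed in AGS, so no fold is given. Each fit has 1 residual degree of freedom and a spread pooled over entries, and neither holds repeated pull-downs of the same line and probe.

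To see which miRNAs had the profile most like each member, the log2(score + 1) of 209 entries with at least 100 summed counts was centred and compared over the 4 libraries by Euclidean distance. For miR-148a-3p the nearest was a predicted entry on chromosome 7 at a distance of 0.345, whose sequence is that of miR-182-5p with 1 more base. miR-421 (0.401), miR-744-5p (0.446), miR-30c-5p (0.736) and miR-148b-3p (0.769) followed. For miR-148b-3p the nearest were miR-421 (0.558) and miR-23b-3p (0.612), then the same predicted entry (0.633), miR-148a-3p (0.769) and miR-93-5p (0.821). For miR-152-3p they were miR-455-5p (0.530), miR-19b-3p (0.670), a predicted entry on chromosome 19 (0.852), miR-23a-3p (0.967) and miR-1246 (1.01). miR-148a-3p and miR-148b-3p were thus among each other's 5 nearest, while miR-152-3p stood 50th for miR-148a-3p and 29th for miR-148b-3p. Several AGS scores behind these distances were near the floor. With the negative probe first they were 5 and 2 for miR-152-3p, 4 and 0 for miR-421 and 3 and 1 for miR-19b-3p. At such scores the rounding and the added 1 shape the profile, so the places of miR-152-3p are uncertain. The likeness is over 4 libraries that share their scaling and is a description.

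The annotated FN1 3′-UTR was searched for matches to the family seed. The sequence of the probes themselves was not used here. In GENCODE 29 it covers 1101 bases after the stop codon (chr2:215360454-215361554, minus strand). The letters TGCACTG, complementary to seed bases 2 to 8, and GCACTG, complementary to bases 2 to 7, were found 0 times. On the opposite strand their reverse complements CAGTGCA and CAGTGC were also found 0 times. Of 9471 stretches of this length that follow the stop codon in other genes, 10.8% held TGCACTG and 28.3% GCACTG, and 8.78% and 28.9% held the reverse complements. The shorter motif lies within the longer one, and the finding says only that these letters are not in this stretch.

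The list of miR-130, miR-301 and miR-454, whose seed resembles that of the family when shifted by a base, was near the limit of detection. Of its 5 miRNAs 3 were in the table, with summed counts of 28 and 11 in HGC27 and 13 and 2 in AGS, and no more than 19 counts in any library. miR-130b-3p had 19 and 2 counts in HGC27, with the negative probe first, and 2 is the smallest count listed in that library. Its count ratio was 0.111 (0.0125 to 0.459), with an interval below 1. In the same order miR-454-3p had 6 and 9 counts, a ratio of 1.58 (0.502 to 5.39), and miR-130a-3p had 3 and 0, with intervals that include 1. Among the 755 entries listed in either HGC27 library, 34.0% were called lower by score. miR-130b-3p was also higher in HGC27 than in AGS with the negative probe, at 19 and 5 counts. By score, 86.0% of all entries listed in those libraries were called higher in HGC27.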

How the data were processed

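Small RNA was sequenced from pull-down material of 4 groups (HGC27 and AGS, each with a positive and a negative probe), 1 library each. According to the submitters' processing notes, adaptors were trimmed with cutadapt 1.9.3, tags were aligned with Novoalign 3.02.12 and the build was hg38. The authors deposited raw tag counts per miRNA and a score, tags scaled per 1000000 and rounded to whole numbers by the authors. Repeated rows were collapsed to 843 entries, and counts below 2 were not listed. The depth was 1296853 to 2955078 counts per library.

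Ratios were computed from scores with a pseudocount of 1. Their exact 95% intervals, and Wilson intervals of shares, cover counting error only. edgeR 4.0.16 (R 4.3.3; TMM, filterByExpr, Benjamini-Hochberg) was fitted over all entries, with limma 3.58.1 and DESeq2 1.42.0 as alternatives. The edgeR fit was also run on simulated counts from a mean profile shared by all libraries. That simulation lacked the line difference of these data, so it does not show how the fit performs on them. Other scalings, pseudocounts of 10 and 0.1 and a 4-fold limit were tried. Named entries were the members, their 5p arms, entries sharing the seed, the 5 nearest profiles per member, and the lists given. Members and lists were chosen with earlier results of these data known. Backgrounds of entries with at least 100 counts and of other hairpins, and totals without let-7 and miR-372-3p for shares, were added after seeing the data. Sequences and positions came from the deposited table and RefSeq, which held 4 of the 5 arms, each with the same sequence; miR-148a-5p had no entry there to compare. Gene context came from GENCODE 29.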

Additional observations from a re-analysis of the deposited data

Results flagged for a closer look

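Between the lines, 3 quantities moved in opposite directions with the positive probe, and with 1 library per group none of these differences was tested. The family share of the counts without miR-372-3p and let-7 changed by -20.1 percentage points in AGS and by 0.276 percentage points in HGC27. miR-148a-3p over miR-152-3p was 5.65 times its negative probe value in HGC27 (4.14 to 7.71) and 0.805 times in AGS (0.356 to 1.82). miR-148b-3p over miR-152-3p was 3.33 times its negative probe value in HGC27 (2.43 to 4.57) and 0.496 times in AGS (0.213 to 1.16). The AGS values of the last pair of ratios rest on 33 and 7 counts of miR-152-3p, and their intervals include 1.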

How the results depend on the processing

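The probe test paired the 2 libraries of a line through the line covariate, and the groups held no replicates that a further block could pair. No other entry shared the seed, so adding such entries gave no other value. The pseudocounts of 10 and 0.1 left all 4 family ratios within their intervals, but these sums describe miR-148a-3p. With a pseudocount of 10 the rarer members mostly moved past theirs. For the probes, miR-152-3p went from 0.122 to 0.176 in HGC27 and miR-148b-3p from 0.185 to 0.248 in AGS. The probe ratios of miR-148b-3p in HGC27 (0.387) and miR-152-3p in AGS (0.8) stayed within. Between the lines, miR-152-3p went from 23.2 to 9.87 with the negative and from 5.67 to 2.17 with the positive probe. The other scalings did not leave the family ratios within their intervals. In the order table totals, TMM, DESeq2 size factors, totals without miR-372-3p, and totals without miR-372-3p and let-7, the family ratio of the positive over the negative probe was 0.690, 0.678, 0.737, 0.691 and 1.00 in HGC27. In AGS it was 0.330, 0.174, 0.224, 0.101 and 0.264. HGC27 over AGS was 10.4, 1.54, 1.47, 2.00 and 2.06 with the negative probe and 21.7, 6.0, 4.84, 13.6 and 7.85 with the positive probe. Members called lower in HGC27 went from 2 to 1 without miR-372-3p and let-7 and at a 4-fold limit, and in AGS from 3 to 1 at a 4-fold limit. In AGS they went from 3 to 2 with a pseudocount of 10. Members called higher in HGC27 with the negative probe went from 3 to 1 with DESeq2 size factors. They went to 2 with TMM and without miR-372-3p in the totals. With the positive probe they went from 3 to 2 with TMM and with DESeq2 size factors. The share of all entries called was not computed at these other settings, so these counts have no background beside them.

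The family share moved past its counting interval with nearly every other total, in the order HGC27 negative, HGC27 positive, AGS negative and AGS positive. It was 51.0%, 35.3%, 25.6% and 2.58% without miR-372-3p, 55.9%, 56.0%, 4.96% and 2.69% without let-7, and 56.0%, 56.3%, 27.2% and 7.18% without both. Among known miRNAs it was 51.5%, 35.7% and 4.96% in the first 3. The share of miR-148a-3p in the family was within its interval when scores were used.

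In the probe test 19 entries passed in edgeR (55 at an unadjusted p under 0.05) and 0 with library totals (52), without the filter on low counts (66), with at least 10 counts in every library (16), in limma-voom (72) and without the covariate (17). With DESeq2 size factors and in the DESeq2 Wald test 32 passed. In the line test 81 passed in edgeR, 169 with library totals, 0 without the filter (95 unadjusted) and 15 with at least 10 counts in every library. No member passed the probe test under any of these fits, with adjusted p from 0.207 to 0.895 for miR-148b-3p and from 0.115 to 0.622 for miR-152-3p under the alternatives, the latter not tested at 10 counts in every library. The members' log2 fold change stayed below 0 in each. The cause of these moves was not tested. Depth limits miR-152-3p in AGS, miR-148b-5p and the miR-130, miR-301 and miR-454 list.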
